A study of Homo sapiens with 6 samples.

Results

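A stretch of 4 Mb on the long arm of chromosome 19 carried an unusually dense set of V5-GSE1 peaks in NB4 cells. Its members were all peaks of 2 deposited lists whose start lay between positions 45 Mb and 49 Mb of chromosome 19 in the human genome build hg38, and the stretch was selected on the density of these same peaks. By this rule 471 of the 21401 DMSO peaks and 568 of the 13233 MC2580 peaks were members, 1039 of 34634 in all. Their number and crowding are therefore given as a description.

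NB4 is a leukaemia line derived from human acute promyelocytic leukaemia. The cells had been transduced with a lentiviral pLEX_307 construct that carries V5-tagged GSE1 (transcript variant 2), or with the empty vector (EV), so that the peaks report an added, tagged protein and not the endogenous one. GSE1-expressing cells received the LSD1 inhibitor MC2580 at 2 µM or the vehicle DMSO for 24 h. For EV cells no treatment time or dose is recorded. Chromatin immunoprecipitation with an anti-V5 antibody and sequencing of the matching inputs gave 6 libraries, 1 in each group. Peak lists existed for the DMSO and MC2580 immunoprecipitations of GSE1 cells, and both had been called against the same EV library beside their own inputs. Without replicates the conditions could not be tested against each other, and sequencing depth was unknown. The lists hold no expression values, so that the identity of the cells could not be checked in them.

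GSE1 is a coiled-coil protein found with LSD1 (KDM1A), a histone demethylase that acts in the CoREST complex and keeps enhancers and promoters of myeloid genes in check. A sequence-specific factor such as GFI1 can bring this complex to DNA, and such a site is usually called as a narrow peak. A peak caller reports a wide peak where enriched windows adjoin without a break. The segment holds genes of several unrelated kinds, from the complement receptor C5AR1 and the SUMO-activating subunit SAE1 to clusters active in testis or skin.

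The sequences at the centres of narrow peaks are shown first. Each is the central 200 bp of a peak under 2000 bp, on the plus strand of hg38. Some narrow members lie inside a wide peak of the other list, such as an MC2580 peak of 1158 bp inside a DMSO peak of 56508 bp. The centre of such a member need not mark a binding site. Capitals mark matches to 6 short words on either strand: GAGGAAGT for PU.1, TGTGGTTT for RUNX, TGANTCA for AP-1, TTGCNNAA for CEBP, AGATAA for GATA and AATCANNGC for GFI1. No word was fully contained in another. Among pairs of 1 DMSO and 1 MC2580 peak, the DMWD window lay at chr19:45791141-45791340 and the CARD8 window at chr19:48246593-48246792. Neither held a word. Not all windows chosen by the rule are shown, and some of the others did hold one.
DMWD pair: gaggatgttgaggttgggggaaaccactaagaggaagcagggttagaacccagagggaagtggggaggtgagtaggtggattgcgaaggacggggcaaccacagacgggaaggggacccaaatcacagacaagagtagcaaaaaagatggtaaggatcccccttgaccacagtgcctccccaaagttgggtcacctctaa
CARD8 pair: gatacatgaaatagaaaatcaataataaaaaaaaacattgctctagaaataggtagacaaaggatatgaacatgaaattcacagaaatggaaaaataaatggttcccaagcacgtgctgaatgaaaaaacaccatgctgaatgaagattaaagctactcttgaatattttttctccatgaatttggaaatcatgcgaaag
The window of the highest-scoring MC2580 peak without DMSO overlap lay at chr19:46232946-46233145, beside the insulin-like growth factor family member IGFL1. It held no word either.
IGFL1 side, MC2580 alone: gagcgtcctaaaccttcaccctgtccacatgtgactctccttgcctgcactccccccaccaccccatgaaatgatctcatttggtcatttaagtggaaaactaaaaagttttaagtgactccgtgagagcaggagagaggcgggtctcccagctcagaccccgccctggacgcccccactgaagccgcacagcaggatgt

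The scores behind these windows differed widely. A score is the peak caller's own value and grows with the evidence against background and with depth, and 50 is the calling threshold. The DMWD peak scored 1100.09 in DMSO and 355.22 in MC2580. It was 1355 bp and 1174 bp wide, and its centre lay 196 bp from an annotated transcription start. Its DMSO score was the highest of the 236 DMSO members under 2000 bp, the next being 451.87. In the whole DMSO list 101 of 19689 peaks under 2000 bp scored as high or higher. The CARD8 pair scored 335.68 in DMSO and 202.7 in MC2580, whereas another pair chosen by the same rule scored 199.96 in DMSO and 255.74 in MC2580. The MC2580 peak beside IGFL1 scored 170.52.

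The words were counted over all narrow members and set beside the lists they came from. The PU.1 word was present in 1.69% of 236 DMSO windows (Wilson 95% interval 0.661 to 4.28), against 3.04% of the windows of all 19689 DMSO peaks under 2000 bp. RUNX was present in 0.424% (0.0748 to 2.36) against 4.84%, and CEBP in 8.90% (5.89 to 13.2) against 14.4%. AP-1 was found in 8.90% against 9.51%, GATA in 8.05% against 10.8% and GFI1 in 3.39% against 3.62%. In the 293 MC2580 windows RUNX was present in 0.683% (0.187 to 2.45), against 3.27% over the list, and CEBP in 7.51% (5.01 to 11.1) against 11.3%. For PU.1, AP-1, GATA and GFI1 the MC2580 shares were 1.71%, 6.48%, 8.87% and 2.39%, against 2.02%, 7.79%, 10.7% and 2.54%. All 12 shares were below that of the list in these 200 bp windows, while in 400 bp windows GFI1 in DMSO was above it (6.78% against 6.45%). For RUNX and CEBP in both lists the interval did not reach the value of the list. The RUNX shares rest on 1 of 236 DMSO and 2 of 293 MC2580 windows. Of members of all widths, 82.4% in DMSO and 93.8% in MC2580 overlapped the other list. The 2 lists are therefore not independent, and the intervals are not a test. The lists include the members themselves.

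The peaks were not spread over the whole segment. Nearly all fell in one dense block at chr19:45790564-48769933, in which neighbouring peaks of the combined lists were never more than 50 kb apart, a limit chosen after seeing the data. The block held 465 of the 471 DMSO and 567 of the 568 MC2580 members in 74.5% of the segment, and DMSO peaks covered 83.5% and MC2580 peaks 77.6% of its 2979370 bp. The 6 DMSO members left of the block scored 52.06 to 115.87, and the only MC2580 member there scored 56.19. The nearest DMSO peak before the block was 182945 bp away and the nearest after it 406404 bp, and for MC2580 the distances were 247470 bp and 406650 bp. Limits of 10 kb or 25 kb ended the block earlier, at position 47903497, before its longest uncovered stretch.

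The limits of the segment itself fell in sparse sequence. The last DMSO peak before it began at 44752953 and scored 245.8, and the first one inside began at 45116957 and scored 74.32. The last DMSO member scored 307.66, and the first DMSO peak past the segment began at 49176338 and scored 821.57. In MC2580 the scores on either side of the lower limit were 64.44 and 56.19, and those on either side of the upper limit were 148.82 and 257.53.

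Coverage inside the block changed in one step. From the start of the block to position 46550000, a boundary chosen after seeing the data at the largest rise in DMSO coverage between neighbouring 50 kb bins there, DMSO peaks covered 51.5% and MC2580 peaks 37.9% of the bases. From there to the end of the block they covered 94.5% and 91.2%. In bins of 50 kb, DMSO coverage went from 62.3% between 46500001 and 46550000 to 90.3% in the next bin and 96.8% in the one after, and MC2580 coverage went from 41.3% to 73.6% and 90.8%. The first peaks of 10 kb or more lay just beyond the step. In DMSO this was a peak of 11481 bp at 46561224, with 1 wide peak among the 263 members before it, and in MC2580 one of 16123 bp at 46619397, with 2 among 238. The calmodulin gene CALM3, at 46601074 to 46610782, was the first list gene beyond the step. Its body was covered to 97.03% in DMSO and 91.6% in MC2580.

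**Figure D1:**
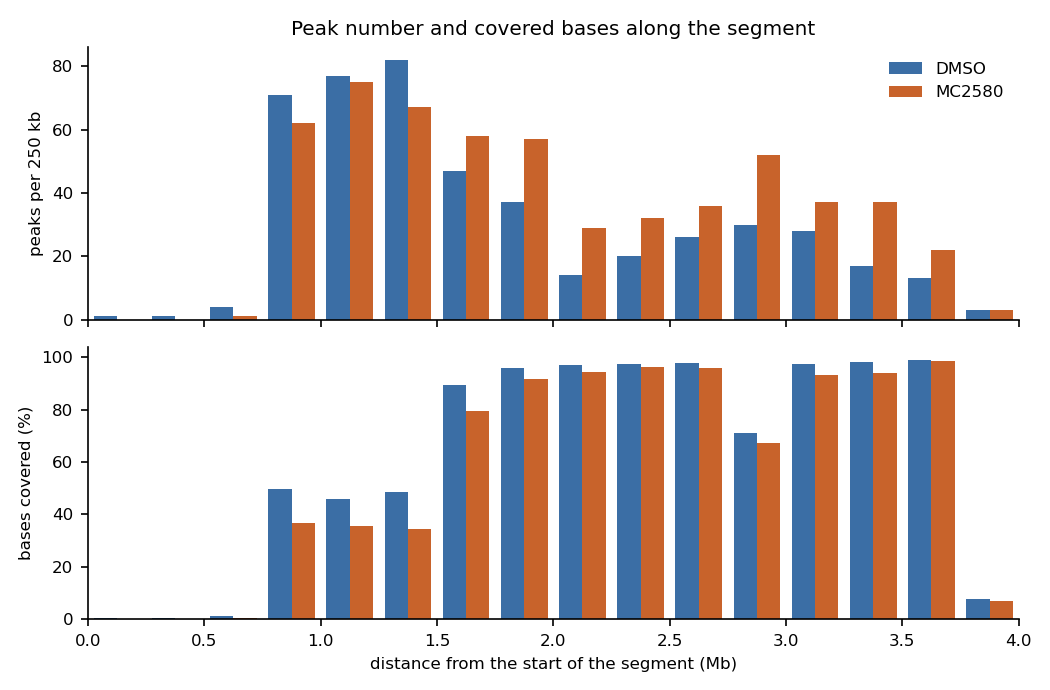
Peaks that start in each 250 kb bin (upper panel) and percent of the bases of the bin covered by peaks (lower panel), against the distance in Mb from the start of the segment, for the DMSO and MC2580 lists. In DMSO the bins with the most peaks (71 to 82) were covered to 45.7% to 49.6%, whereas bins farther along held 13 to 47 peaks and were covered to 71.3% to 99.1%, apart from the last one.

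Peak number and coverage thus pointed in different directions along the block. The lower part, of 0.759 Mb, held 252 DMSO and 219 MC2580 peaks with median widths of 1302 bp and 1160 bp. The upper part, of 2.22 Mb, held 213 and 348 peaks with median widths of 5636 bp and 3432 bp. There were therefore 0.869 MC2580 peaks per DMSO peak below the step and 1.63 above it, while the ratio of covered bases was 0.736 below and 0.965 above. Over the whole segment these ratios were 1.21 for number and 0.928 for covered length (2.31 and 2.49 Mb), against 0.605 and 0.583 for all peaks outside the segment. Without peaks of at least 5000 bp the ratio of covered length in the segment was above 1, at 1.27. This limit was applied to each list on its own. A wide DMSO peak was thus left out while MC2580 peaks under 5000 bp inside it were kept, so the value is not read as a rise in coverage. Median scores were 129 and 98.7 below the step and 1094 and 581 above it. GC content was 48.6% below the step and 50.5% above it, and there were 25.02 and 29.7 protein-coding genes per Mb. The flanks of the block inside the segment, where peaks were few, had a GC content of 52.9% on the left and 52.0% on the right.

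The largest hole in the block was a stretch of 46363 bp at 47903498 to 47949860, which no peak of either list touched. It holds no protein-coding gene. Of its 50-base words, 95.4% occurred more than once on chromosome 19, counting both strands. The next hole, of 8957 bp at 47950689 to 47959645, had 87.1% repeated words. Bases covered in both lists had 4.04%, those covered in 1 list 4.93%, and the whole chromosome 9.25%. The authors kept only reads with a unique match, and the part of this filter in the holes was not tested. The holes at the DMWD and RSPH6A genes (7626 bp) and in PPP5C (5791 bp), next in length, had 4.63% and 6.94%. Uncovered bases other than the largest hole had 10.98%, and GC content was 45.6% over the uncovered bases of the block against 51.1% where both lists had a peak.

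Wide peaks, taken as those of at least 5000 bp, made up 122 DMSO members (25.9%, Wilson 95% interval 22.2 to 30.0) and 130 MC2580 members (22.9%, 19.6 to 26.5). In the whole lists the shares were 1.59% and 2.21%. The segment alone held 35.9% of the 340 wide DMSO peaks and 44.5% of the 292 wide MC2580 peaks, although it held 2.20% and 4.29% of all peaks. Wide peaks carried 74.9% of the covered bases of the segment in DMSO and 65.7% in MC2580. Only 1 wide peak of each list began below the step. The median member was 1996 bp wide in DMSO (95% interval 1840 to 2295) and 1929 bp in MC2580 (1712 to 2086), whereas the means were 5293 bp and 4071 bp and the widest members 81336 bp and 34162 bp. The intervals given here reflect only how many peaks were counted, and peaks do not stand in for replicates of a condition.

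Score followed width closely in both lists. DMSO members under 1 kb had a median score of 68.3, those of 1 to 2 kb 143, those of 2 to 5 kb 363, those of 5 to 10 kb 1329 and those of 10 kb or more 3100. The MC2580 medians in the same classes were 65.8, 139, 416, 1385 and 3100. The score of exactly 3100 was shared by 43 DMSO and 30 MC2580 members, and 2 in each list scored higher, so that scores at this level do not rank peaks. The median of all members was 238 in DMSO (207 to 278) and 229 in MC2580 (195 to 268). Members of 10 kb or more numbered 66 in DMSO and 58 in MC2580.

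**Figure D2:**
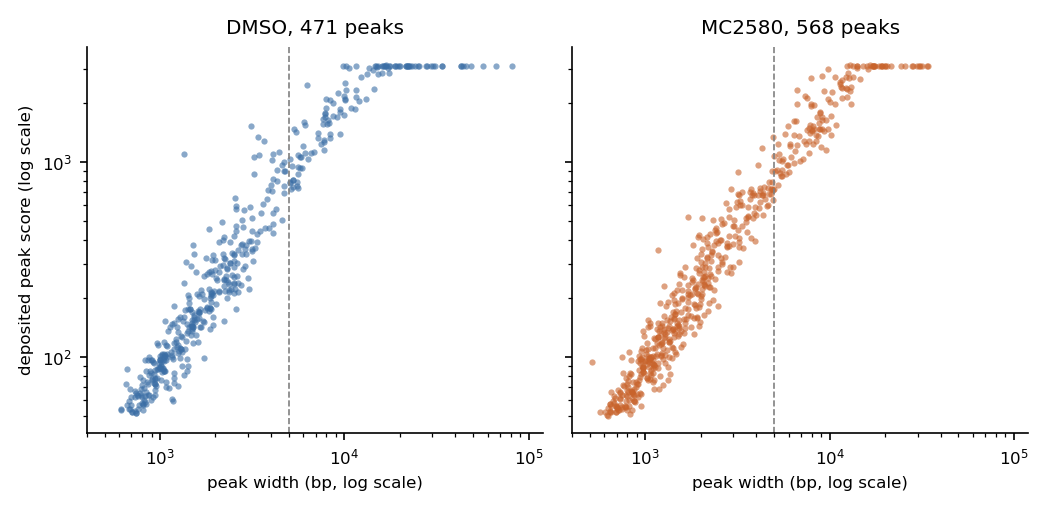
Deposited score against peak width, both on log scales, for the 471 DMSO (left) and 568 MC2580 members (right), 1 point per peak, with a dashed line at 5000 bp. Scores climbed with width up to the shared value of 3100, and the DMWD peak (1355 bp, 1100.09) stood above the DMSO points of its width.

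The widest members spanned whole groups of neighbouring genes. The widest DMSO peak, at 48317225 to 48398560, ran over 81336 bp and 6 genes, from ODAD1 (docking of the outer dynein arm in cilia) and EMP3 (a membrane protein) over TMEM143, SYNGR4 and KDELR1 (retrieval of proteins to the endoplasmic reticulum) to GRIN2D (an NMDA receptor subunit). It was the second widest of its list. In MC2580 the same bases lay in 5 peaks of 28237, 9379, 3174, 5978 and 34162 bp, which together covered 99.5% of it. The breaks between these 5 peaks were short. The one between the fourth and the fifth, at 48364324 and 48364326, was a single base.

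The second DMSO peak, of 66569 bp at 48602785 to 48669353, overlapped 7 genes, the first (FAM83E) and the last (the netrin gene NTN5) in part. Among the others were RPL18 of the large ribosomal subunit, the sphingosine kinase SPHK2 and the circadian transcription factor DBP. MC2580 had 3 peaks there, of 31678, 21628 and 12894 bp, with scores of 3100, 3100 and 3122.11, and they covered 99.4% of the DMSO peak. The third, of 56508 bp over ZC3H4 and SAE1 at 47104264 to 47160771, corresponded to 6 MC2580 peaks of 1158 to 25801 bp that covered 98.7%. The scores of these 6 went from 139.84 to 3100.

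The most broken DMSO peak of the segment lay over the 3' part of SAE1 and over BBC3, which encodes the apoptosis protein PUMA. It ran over 43102 bp at 47196448 to 47239549 and corresponded to 9 MC2580 peaks of 1111 to 19073 bp, with scores from 90.76 to 3100, covering 95.1% of it. The peak over C5AR1 was the opposite case. It measured 33868 bp at 47287267 to 47321134 in DMSO and 33679 bp at 47287517 to 47321195 in MC2580, and both scored 3100. Among the 10 widest DMSO peaks it was the only one with a single MC2580 counterpart. The others corresponded to 2 to 9, and the share of their bases covered by MC2580 peaks was 91.5% to 99.6%. The lowest share belonged to the peak over NOP53 (ribosome biogenesis) and SELENOW (a selenoprotein), of 33821 bp, where the 6 MC2580 peaks scored 53.55 to 1642.27.

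**Figure D3:**
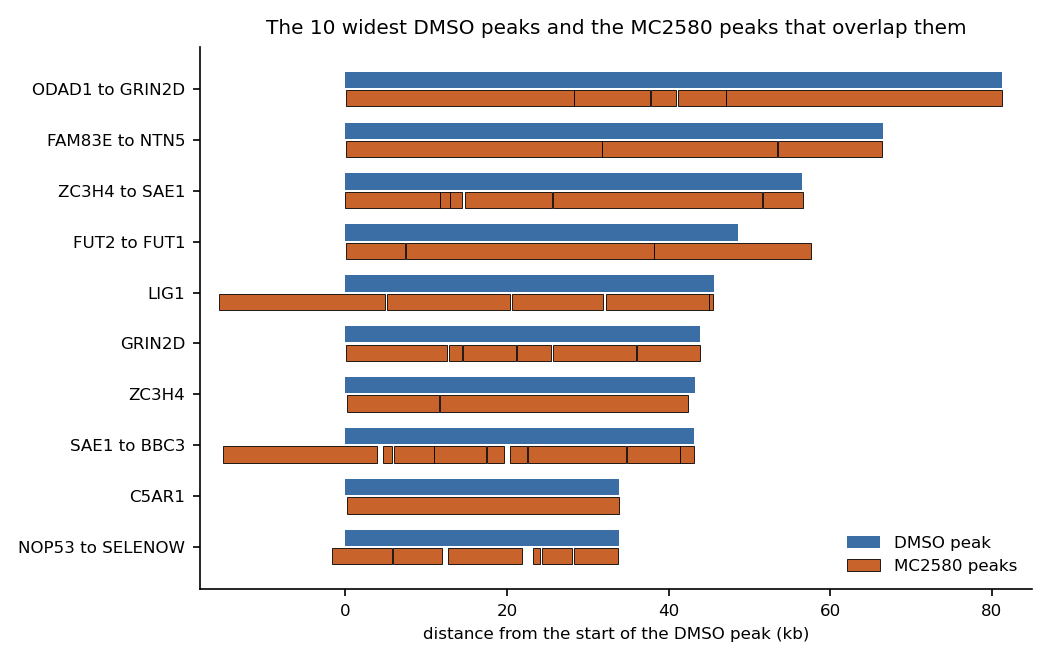
The 10 widest DMSO peaks (blue), aligned at their starts and named by the first and last protein-coding gene they overlap, with the MC2580 peaks that overlap each of them (orange, outlined) below, against distance in kb. The C5AR1 peak had 1 MC2580 counterpart and the SAE1 to BBC3 peak had 9, and most breaks are too short to be seen at this scale.

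The widest MC2580 peaks showed the reverse relation in a few places. Of the 10 widest, 7 lay inside or over 1 DMSO peak and 3 overlapped 2 DMSO peaks. Each of these 3 lay over part of a gene. The first met ARHGAP35, a GTPase-activating protein (29906 bp, against DMSO peaks of 22600 and 22218 bp). The others met BICRA, a subunit of a SWI/SNF complex (28023 bp, against 21751 and 16638 bp), and NAPA, a SNARE-disassembly factor (24544 bp, against 24212 and 27822 bp). The MC2580 member with the highest printed score, 3147.16, lay in SAE1 at 47164318 to 47180988, where DMSO had peaks of 15025 and 5369 bp with scores of 3056.3 and 1472.08. The DMSO member with the highest, 3144.96, lay in ODAD1 at 48300416 to 48317188 and met MC2580 peaks of 6389 and 9280 bp that scored 980.56 and 1442.39.

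Every wide peak of one list met a peak of the other. Of the 122 wide DMSO peaks, 90 (73.8%, 65.3 to 80.8) overlapped 2 or more MC2580 peaks, and the median share of their bases under MC2580 peaks was 97.2%. Of the 130 wide MC2580 peaks, 36 (27.7%, 20.7 to 35.9) overlapped 2 or more DMSO peaks, and the median share was 100%. Over all widths 140 DMSO members (29.7%, 25.8 to 34.0) were split in this way, and 91 MC2580 members (16.0%, 13.2 to 19.3). In the whole lists the shares were 4.13% and 4.98%. A wide peak can meet more peaks than a narrow one, and the segment was selected for dense peaks, so nothing is read from the distance to these values.

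The breaks that made the splits were short. The 140 split DMSO members contained 245 breaks between neighbouring MC2580 peaks, with a median of 149 bp (112 to 188), and 171 (69.8%) were under 300 bp and 235 (95.9%) under 1 kb. The 100 breaks inside split MC2580 members had a median of 137 bp (107 to 184), and the longest was 905 bp. When MC2580 peaks within 1 kb were joined first, 10 of the 140 DMSO members remained split, and with DMSO peaks joined, none of the 91 MC2580 members did. Joining also lowered the number of members to 139 in DMSO and 177 in MC2580. The number stayed higher in MC2580 after joining, at a lower covered length.

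Base by base the lists were close. In the block 73.6% of the bases were covered in both lists, 9.86% in DMSO only, 3.95% in MC2580 only and 12.5% in neither. Of the bases covered by members, 88.04% of those in DMSO and 94.9% of those in MC2580 were shared. The stretches covered in 1 list only were short, with medians of 248 bp for DMSO and 165 bp for MC2580. The longest was 2582 bp in DMSO and 2391 bp in MC2580, both outside protein-coding genes in the lower part of the block.

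By peak, 388 of the 471 DMSO members (82.4%, 78.7 to 85.6) overlapped an MC2580 peak by at least 1 bp, against 33.6% in the whole list. In the other direction 533 of the 568 MC2580 members (93.8%, 91.6 to 95.5) overlapped a DMSO peak, against 58.0%. Peaks that cover most of the bases overlap readily, so these shares follow in part from the coverage that chose the segment. Below the step 72.2% and 85.4% overlapped, and above it 96.2% and 99.1%. Members without a counterpart were narrow and low. The 83 DMSO ones had a median width of 972 bp and a median score of 88.4, with a maximum of 260.97 at 45804389 to 45806683 in RSPH6A (a radial spoke protein of cilia). The next scored 237.79, at 46286346 to 46288728, 8314 bp from the hypoxia-inducible factor gene HIF3A, and 219.97, at 48257202 to 48258870, 1256 bp from the inflammasome regulator CARD8. The 35 MC2580 ones had medians of 970 bp and 81.4. The highest of them lay beside IGFL1 (170.52) and on either side of PNMA8B (146.78 and 140.25).

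Scores of matched peaks were compared in the 166 pairs in which 1 DMSO member met 1 MC2580 peak and no other. The MC2580 score was lower in 115 pairs (69.3%, 61.9 to 75.8) and equal in 4. In the whole series 76.7% of such pairs were lower. The median ratio of MC2580 to DMSO score was 0.742 (0.676 to 0.846) in the segment and 0.634 (0.620 to 0.647) outside it, and the ratio of widths was 0.883 (0.848 to 0.931) and 0.844 (0.837 to 0.851). Of these pairs, 115 began below the step, with a median score ratio of 0.673, and 50 above it, with 0.847, and 1 lay left of the block. Scores of 3100 in both lists give a ratio of 1 by their tie, and depth differences between the libraries cannot be told apart from differences in binding.

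Genes were covered over their bodies as well as at their starts. The annotation places 127 protein-coding genes in the segment. Of these, 81 (63.8%) were covered over at least 50% of their body in DMSO and 73 (57.5%) in MC2580, against 1.12% and 0.824% of 20033 genes genome-wide. The start lay in a peak for 76 (59.8%) in DMSO and 67 (52.8%) in MC2580, against 3.93% and 1.49%. With starts within 1 kb of a peak included, the numbers in the segment were 85 and 83. These counts were set by position in the block. All 85 genes wholly inside it were touched in both lists, with median coverage of 98.1% in DMSO and 96.4% in MC2580, and none of the 41 genes wholly outside it had its start covered. Of those 41, 35 in DMSO and 40 in MC2580 had no covered base. In the upper part of the block the lowest coverage of a gene was 48.7% in DMSO and 48.1% in MC2580, both at TPRX2, and the medians over 66 genes were 98.6% and 97.6%. In the lower part the medians over 19 genes were 58.7% and 41.4%.

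Position in the gene made little difference inside the block. Bases within 1 kb of a transcription start were covered to 88.9% in DMSO and 83.1% in MC2580, exons to 90.4% and 86.4%, and gene bodies outside exons to 89.4% and 84.3%. Bases outside protein-coding genes were covered to 71.6% and 63.6%, and they include the repeated stretches described above. By the usual classing 60.7% of DMSO members (56.2 to 65.0) and 58.1% of MC2580 members (54.0 to 62.1) touched the 3 kb around a start, against 35.2% and 31.0% in the whole lists. A wide peak reaches a start more easily than a narrow one. By peak centre the shares were 43.5% (39.1 to 48.04) and 44.5% (40.5 to 48.7), and 43.4% of all bases of the block lie within 3 kb of a start. Over the whole lists the shares by centre were 31.4% and 27.5%.

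The 6 listed innate immunity genes lay wholly in the block and were covered in both lists. The list was chosen with earlier results known, and RELB, outside the list and left of the block, was at 0% in both. All 6 listed genes reached at least 50%, with ranges of 90.2% to 100% in DMSO and 56.9% to 100% in MC2580. Over all 85 genes of the block, 95.3% in DMSO and 85.9% in MC2580 did so, so that the count of 6 is near what position in the block gives. C5AR1, a receptor for the complement fragment C5a, was covered to 99.7% and 99.2%, and its neighbour C5AR2 to 90.2% and 91.0%. The prostacyclin receptor gene PTGIR was covered to 100% in both, and the phospholipase gene PLA2G4C to 97.01% and 92.2%. CARD8 was covered to 94.9% and 85.1%, and its start was inside a peak in DMSO only. PGLYRP1, a peptidoglycan-binding protein of neutrophil granules, lay below the step and had the largest difference of the 6 (93.2% and 56.9%). The start of C5AR1 in RefSeq lay inside the wide peak in both lists, and the 250 bases before it, at chr19:47309611-47309860 of GRCh38.p14 on the plus strand, held 1 RUNX word, a word found in 1.31% of 35116 RefSeq promoters of the same length.
C5AR1 promoter: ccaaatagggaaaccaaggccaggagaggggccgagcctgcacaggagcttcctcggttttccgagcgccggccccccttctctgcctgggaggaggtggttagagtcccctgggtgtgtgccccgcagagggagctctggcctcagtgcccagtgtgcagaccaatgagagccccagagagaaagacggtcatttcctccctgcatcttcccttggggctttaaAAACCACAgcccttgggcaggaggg

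The 9 listed transcription factor genes were divided by their position, and RELB, at 0% in both lists, was not among them. FOSB, which encodes an AP-1 subunit, lies within the limits of the segment but was not covered by any peak in either list. Its position is left of the block at 45467995 to 45475179, and the nearest peak to its start was 11306 bp away in DMSO. The homeobox gene SIX5 was at 0% as well. The 7 others lay in the block. NPAS1 (99.99% in DMSO and 98.7% in MC2580), DBP (100% and 99.4%) and MEIS3 (97.9% and 97.5%) were nearly filled above the step, and CRX, the photoreceptor homeobox factor, was covered to 94.7% and 84.2%. FOXA3, a forkhead factor of liver and gut, was covered to 74.2% and 40.9%, MYPOP to 52.4% and 24.1% and HIF3A to 52.6% and 38.2%, all 3 below the step. Of the 9 genes, 7 in DMSO and 4 in MC2580 reached 50%. Over all 127 genes of the segment 63.8% in DMSO and 57.5% in MC2580 did so. Over the 85 genes of the block the shares were 95.3% and 85.9%.

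Genes of repair, survival and stress were also sorted by position. LIG1, which joins nicks in replication and repair, was covered to 99.4% and 98.1%, whereas the excision repair genes ERCC1 and ERCC2 lay outside the block at 1.36% and 0% in DMSO and 0% in MC2580. BBC3 was covered to 100% and 99.6%, while BAX, the stress-response phosphatase subunit PPP1R15A and the ferritin light chain gene FTL, all right of the block, were at 0% in both lists. The muscle genes CKM and DMPK, left of the block, were at 0% in both lists.

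Housekeeping and signalling genes in the upper part were filled in both lists. SAE1 was covered to 99.2% and 97.5%, by 6 DMSO and 12 MC2580 peaks, RPL18 to 100% and 100%, and NOP53 to 93.0% and 96.4%. SNRPD2, outside the block, was at 0%, and RUVBL2, the other gene of this list, did not lie wholly in the segment. Over the 85 genes of the block 95.3% in DMSO and 85.9% in MC2580 reached 50%. Of 10 genes for signalling, cytoskeleton and traffic, 9 reached 50% in both lists. The exception was VASP (an actin regulator, left of the block) at 7.75% and 0%. ARHGAP35, the longest of these 10 with 144081 bp, was covered to 96.7% by 18 DMSO peaks and to 91.4% by 32 MC2580 peaks. SPHK2, KDELR1 and the ARF exchange factor gene CYTH2 were at 100% in both, CALM3 as given above, and STRN4 at 98.3% and 97.5%. PRKD2 (protein kinase D2) was at 98.97% and 95.8%, AP2S1, an adaptor subunit of clathrin coats, at 93.3% and 93.3%, and NAPA at 98.1% and 98.9%.

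Genes known mainly from tissues other than blood were covered too. All 13 listed ones lay in the block and were touched in both lists, with median coverage of 94.7% in DMSO and 84.2% in MC2580, and 11 reached 50% in each, although not the same 11. Over all 85 genes of the block 81 and 73 did, with the higher medians given above. The exceptions were IGFL2 (20.0% in DMSO and 12.3% in MC2580) in both lists, IGFL3 in DMSO (9.07% against 56.1%) and IGFL4 in MC2580 (51.3% against 41.4%). These 3 belong to the IGFL cluster below the step, where IGFL1 was at 98.1% and 77.8%. The germ-cell gene NANOS2 was at 100% in both. GRIN2D (97.9% and 96.3%), the potassium channel gene KCNJ14 (99.8% and 99.8%), the sperm protein genes ELSPBP1 (98.2% and 96.4%) and BSPH1 (82.7% and 71.7%), CABP5 of the retina (96.5% and 96.2%) and TPRX1 (82.8% and 73.6%) lay above it. The liver sulfotransferase gene SULT2A1 was covered to 88.5% in DMSO and 93.9% in MC2580. The other glycan and sulfate transfer genes, FUT1, FUT2 and SULT2B1, were covered to 97.1% or more in DMSO and to 96.6% or more in MC2580.

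Differences between the lists were concentrated on genes of the lower part. Of the 85 genes in the block, 58 had lower coverage in MC2580, 12 higher and 15 equal, with a median difference of -0.746 percentage points, and 14 were lower by at least 10 points while 1 (IGFL3) was higher by as much. Among genes of at least 5000 bp the 8 largest differences all lay below the step and were all towards lower coverage in MC2580. They were FOXA3 (-33.4 points), MYPOP (-28.3), the centrosomal gene CCDC61 (-24.6), the neuronal splicing factor gene NOVA2 (-19.6), the phosphatase gene PPP5C (-17.9), SYMPK, a scaffold of RNA 3' end processing (-14.6), HIF3A (-14.4) and RSPH6A (-13.5). The start lay in a peak in DMSO only for 11 genes, among them RSPH6A, SYMPK, PGLYRP1, IGFL1, PRKD2, ARHGAP35, NAPA and CARD8, and in MC2580 only for CCDC8 and MEIS3. For the 11 genes the nearest MC2580 peak was 23 bp (NAPA) to 943 bp (RSPH6A) from the start. For MEIS3 the nearest DMSO peak was 12 bp from the start. In DMSO 21 genes lay entirely inside 1 peak and in MC2580 16, of which 15 did so in both lists. Over all 20033 protein-coding genes the start lay in a peak for 787 in DMSO and 299 in MC2580. Peaks touched 4584 and 2457 genes. Fewer covered starts in MC2580 are thus not particular to the block. For the other counts of this paragraph no genome-wide value is given.

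**Figure D4:**
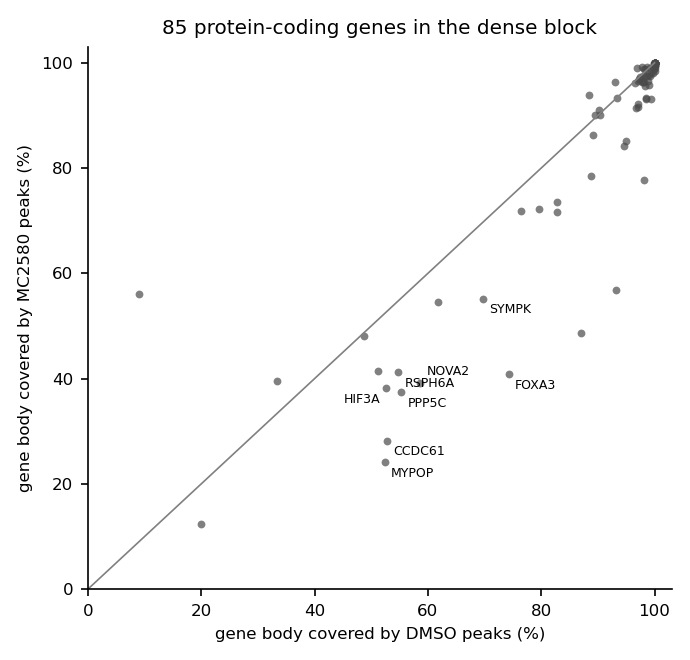
Percent of the gene body covered by MC2580 peaks against percent covered by DMSO peaks for the 85 protein-coding genes inside the dense block, 1 point per gene, with the line of equality. Most genes crowd at the upper right corner, and the 8 named genes, from RSPH6A (-13.5 points) to FOXA3 (-33.4 points), lie below the line.

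A second crowded stretch on the short arm of the same chromosome, from 7 to 11 Mb, was set beside the segment. It held more members, 692 DMSO and 771 MC2580 peaks, with a lower share of wide ones (12.3%, 10.0 to 14.9, and 8.04%, 6.32 to 10.2). Its median scores were 180 and 158. The ratios of MC2580 to DMSO peaks were 1.11 for number and 0.871 for covered length. Both crowded stretches thus had more peaks in MC2580, with a lower mean width. Ratios of mean width were 0.769 in the segment and 0.781 on the short arm. For all peaks outside the segment, which include those of the short arm, the ratio was 0.963. Median widths in DMSO and MC2580 differed less, at 1996 and 1929 bp in the segment and 1633.5 and 1508 bp on the short arm. Below the step of the segment MC2580 had fewer peaks, 219 against 252. Both stretches were chosen for crowded peaks in these same lists. These are differences between 2 libraries.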

How the data were processed

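Anti-V5 ChIP-seq of NB4 cells was analysed from 2 deposited peak lists. The study's methods state that the authors mapped reads with Bowtie to hg38, kept unique matches and called peaks with MACS, using the matching input and the EV immunoprecipitation as background. How these backgrounds were combined is not given in the sources used here. The score deposited by the authors is the caller's minus 10 times log10 p. Lists were assigned to conditions by their names.

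The members, gene lists and named genes were chosen with earlier results of these data known. Genes were named from fixed lists, the 10 widest and 3 highest-scoring peaks of each list, the 8 largest differences in coverage and the 3 highest peaks found in 1 list. All 21401 and 13233 peaks lay inside the chromosome lengths of the reference. Genes came from GENCODE version 44 and 1 promoter sequence from RefSeq. The window before FOSB touched an annotated exon and is not shown. Some chosen sequences and 1 listed gene are not reported here. Coordinates count from 1. Interval functions were tested on simulated data. Depth was unknown, so values and counting intervals are given without tests. Tools were matplotlib 3.10.9, scipy 1.17.1, pandas 2.3.3, numpy 2.4.6 and Python 3.11.15.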

Additional observations from a re-analysis of the deposited data

How the results depend on the processing

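No paired analysis was possible because each condition had a single library, and no replicate could be left out. Of 68 alternative values, 39 stayed within the interval of the reported value, within 1.5 times a count or within 10% of the ratio of covered length, and 29 moved. None changed a call, since no test was made. Merging peaks within 1 kb left 139 DMSO and 177 MC2580 members, and with merged pieces 10 DMSO and 0 MC2580 members were split. Without peaks of at least 5000 bp, left out of each list on its own, the ratio of covered length passed 1, to 1.27. Median scores were then 155 in DMSO and 149 in MC2580. At a width of at least 10000 bp the wide members numbered 66 and 58. The overlapping share of DMSO members was 77.1% for 50% of the shorter peak, 49.04% for 50% of both, 92.4% within 1 kb and 78.7% at a score of at least 100. For MC2580 members the first 3 of these rules gave 89.96%, 40.7% and 97.01%. The promoter share was 40.98% and 40.3% within 1 kb of a start, 46.3% and 45.95% with protein-coding starts, and 43.5% and 44.5% by peak centre, the last chosen after seeing the data. With 400 bp windows 7 of 12 word shares moved: AP-1 to 15.7% and 11.9%, CEBP to 16.1% and 12.6%, GATA to 17.4% and 12.97%, and GFI1 in DMSO to 6.78%, which is above the 6.45% of the list. A longer window holds more words by construction. The input and EV libraries were not analysed here, so coverage of the same bases in them is unknown.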
